A study of Homo sapiens with 47 samples.

Results

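miR-582 is a microRNA (miRNA) whose hairpin precursor yields 2 mature strands, miR-582-5p and miR-582-3p. Both were followed in PC-3 and 22Rv1, human prostate cancer cell lines, kept under low oxygen. The 2 arms are 2 of the 1006 entries of the small RNA count table and were taken by name. They were selected on measured values: their mean hypoxia response in each line and its difference between the lines were known when they were put forward. The hypoxia responses and those of the arm ratio are therefore given below as descriptions, with no test. Tests were kept for the level in normoxia, the trend over oxygen levels, the normoxia control sets and the normoxia arm ratio.

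Cells were grown in RPMI-1640 with 10% fetal bovine serum and exposed for 24 h to 5, 2, 1, 0.5, 0.2 or 0% O2 in a hypoxia chamber. Normoxia controls (95% air) were run separately for each of the 6 levels. PC-3 comes, per the labels, from a bone metastasis, and 22Rv1 (p22rv1 in the labels) is given as primary, from a subline of the CWR22R xenograft. Groups held 2 libraries each. The exception was 22Rv1 normoxia at the 0.2% level, where 1 library was analysed. This gave 24 PC-3 libraries and 23 22Rv1 libraries, with 960421 to 4327382 counts each. The treatments were done in duplicate, but the labels do not say whether duplicates were separate cultures, so the p-values reflect library-to-library spread that may be technical. In such bulk samples, fewer cells of a type and less RNA per cell cannot be told apart.

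A miRNA hairpin is cut in the cytoplasm by Dicer into a duplex of its 5p and 3p arms, and one strand is usually loaded into an Argonaute protein while the other is degraded. The loaded strand finds target mRNAs mainly through its seed, bases 2 to 8. Because both arms come from one transcript, their ratio can change through steps after transcription, such as strand choice and stability. In prostate cancer, both arms of miR-582 have been reported to restrain bone metastasis by repressing TGF-β signalling.

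The sequences below show why the arms are counted and read as separate molecules: they share one hairpin but not a seed. In the mature strands capitals mark the seed, and in the hairpin they mark both arms. Sequences are from RefSeq (GRCh38.p14), 5′ to 3′.
MIR582 hairpin: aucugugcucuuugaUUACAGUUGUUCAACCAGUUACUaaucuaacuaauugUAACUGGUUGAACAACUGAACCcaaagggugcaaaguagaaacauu
hsa-miR-582-5p: uUACAGUUguucaaccaguuacu
hsa-miR-582-3p: uAACUGGUugaacaacugaacc

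The hairpin of 98 bases lies at chr5:59703606-59703703 on the minus strand of GRCh38.p14, with the 5p arm (23 bases) at chr5:59703666-59703688 and the 3p arm (22 bases) at chr5:59703630-59703651. It sits in an intron of PDE4D, a cAMP phosphodiesterase gene on the same strand. All 8 PDE4D transcripts of GENCODE 29 that span the hairpin have no exon over it. Bases 4 to 21 of the 5p arm form an unbroken run of 18 bases complementary to the 3p arm. Both strands begin with U, and their seeds share 4 of 7 bases by position. Among the 2370 mature entries of the RefSeq table, 0 other miRNAs carry either seed, so no seed family of miR-582 was available to set beside the arms. By name, 868 of the 1006 entries of the count table matched a RefSeq mature sequence.

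The lines carried the miRNAs listed as typical of them. Levels are in CPM (the usual library-size-adjusted unit of read counts), TMM scaled, that is, adjusted for composition by edgeR's trimmed mean method on one scale over both lines. The summed level of 6 PC-3-linked miRNAs, such as miR-222-3p and miR-100-5p, was 81802 to 101970 CPM in PC-3 libraries and 67.4 to 178 CPM in 22Rv1 libraries. The sum of 4 22Rv1-linked miRNAs, led by miR-148a-3p and miR-375, was 628 to 1366 CPM in PC-3 libraries and 34655 to 94097 CPM in 22Rv1 libraries. miR-210-3p, a transcriptional target of hypoxia-inducible factor, averaged 1075 ± 110 CPM in hypoxia and 667 ± 88.4 CPM in normoxia in PC-3 (SD, n = 12 each). In 22Rv1 it averaged 2377 ± 430 CPM in hypoxia (n = 12) and 1153 ± 164 CPM in normoxia (n = 11). A few libraries stood apart. Summed stromal markers, almost all miR-143-3p, reached 1406 CPM in hypoxia and 1478 CPM in normoxia in replicate 1 of PC-3 at 5% O2, against at most 46.0 CPM in the other PC-3 libraries. In 22Rv1, replicate 1 of hypoxia at 5 and 0.5% O2 and of normoxia at 5% O2 lay apart on the first principal component, which held 26.8% of the variance. Results for the arms are given with and without these libraries where they rest on them.

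In normoxia both arms were more abundant in PC-3 than in 22Rv1. miR-582-3p had a lowest, median and highest value of 111, 134 and 161 CPM in the 12 PC-3 libraries, against 34.7, 47.3 and 54.5 CPM in the 11 22Rv1 libraries. miR-582-5p had 29.9, 34.7 and 45.4 CPM in PC-3, against 5.75, 10.7 and 12.9 CPM in 22Rv1. The ranges of the lines did not overlap for either arm, so the lowest PC-3 library was above the highest 22Rv1 library. The difference was 2.97-fold for miR-582-3p (PC-3 minus 22Rv1, log2 1.57 with a standard error of 0.085; the quasi-likelihood test of edgeR gave a Benjamini-Hochberg adjusted p = 3.12e-19). For miR-582-5p it was 3.45-fold (log2 1.79, standard error 0.13, adjusted p = 2.25e-15, same edgeR test). The lines differ broadly: 527 of 613 miRNAs (86%) passed this test, 243 higher in PC-3 (39.6%) and 284 lower (46.3%), with a median log2 difference of -0.15 over all 613. With library size alone in place of TMM that median was -0.60, a shift of -0.45. The differences of the arms fell with it, to log2 1.31 for miR-582-5p and 1.10 for miR-582-3p. Relative to the median, miR-582-5p was 1.92 higher in PC-3 on the log2 scale with library size alone, against 1.94 under TMM. miR-582-3p was 1.71 higher relative to the median with library size alone, against 1.72 under TMM. A change of scaling shifts all miRNAs by nearly the same amount, so this likeness follows from the measure. The fold differences above therefore depend on the scaling.

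The 3p arm was the more abundant one in all 47 libraries, by 2.78 to 16.2 times. miR-582-3p averaged 119 ± 19.9 CPM in PC-3 hypoxia and 138 ± 14.7 CPM in PC-3 normoxia, and 67.2 ± 9.75 CPM in 22Rv1 hypoxia and 47.8 ± 6.21 CPM in 22Rv1 normoxia. For miR-582-5p the means were 28.5 ± 5.27 CPM in PC-3 hypoxia and 35.5 ± 4.89 CPM in PC-3 normoxia, and 10.6 ± 3.17 CPM in 22Rv1 hypoxia and 10.2 ± 2.32 CPM in 22Rv1 normoxia. Values after ± are SD over 12 libraries, or 11 for 22Rv1 normoxia. For both arms the order of the means was the same, with PC-3 normoxia highest, then PC-3 hypoxia, 22Rv1 hypoxia and 22Rv1 normoxia, and no PC-3 library overlapped a 22Rv1 library. PC-3 hypoxia and PC-3 normoxia overlapped for both arms, and 22Rv1 hypoxia and normoxia overlapped for miR-582-5p. For miR-582-3p in 22Rv1, 11 of the 12 hypoxia libraries were above the highest normoxia library on the TMM scale. The share of all miRNAs that separate as far, between lines or between conditions, was not counted. The overlaps given here and below therefore describe the arms alone and do not set them apart from other miRNAs.

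**Figure D1:**
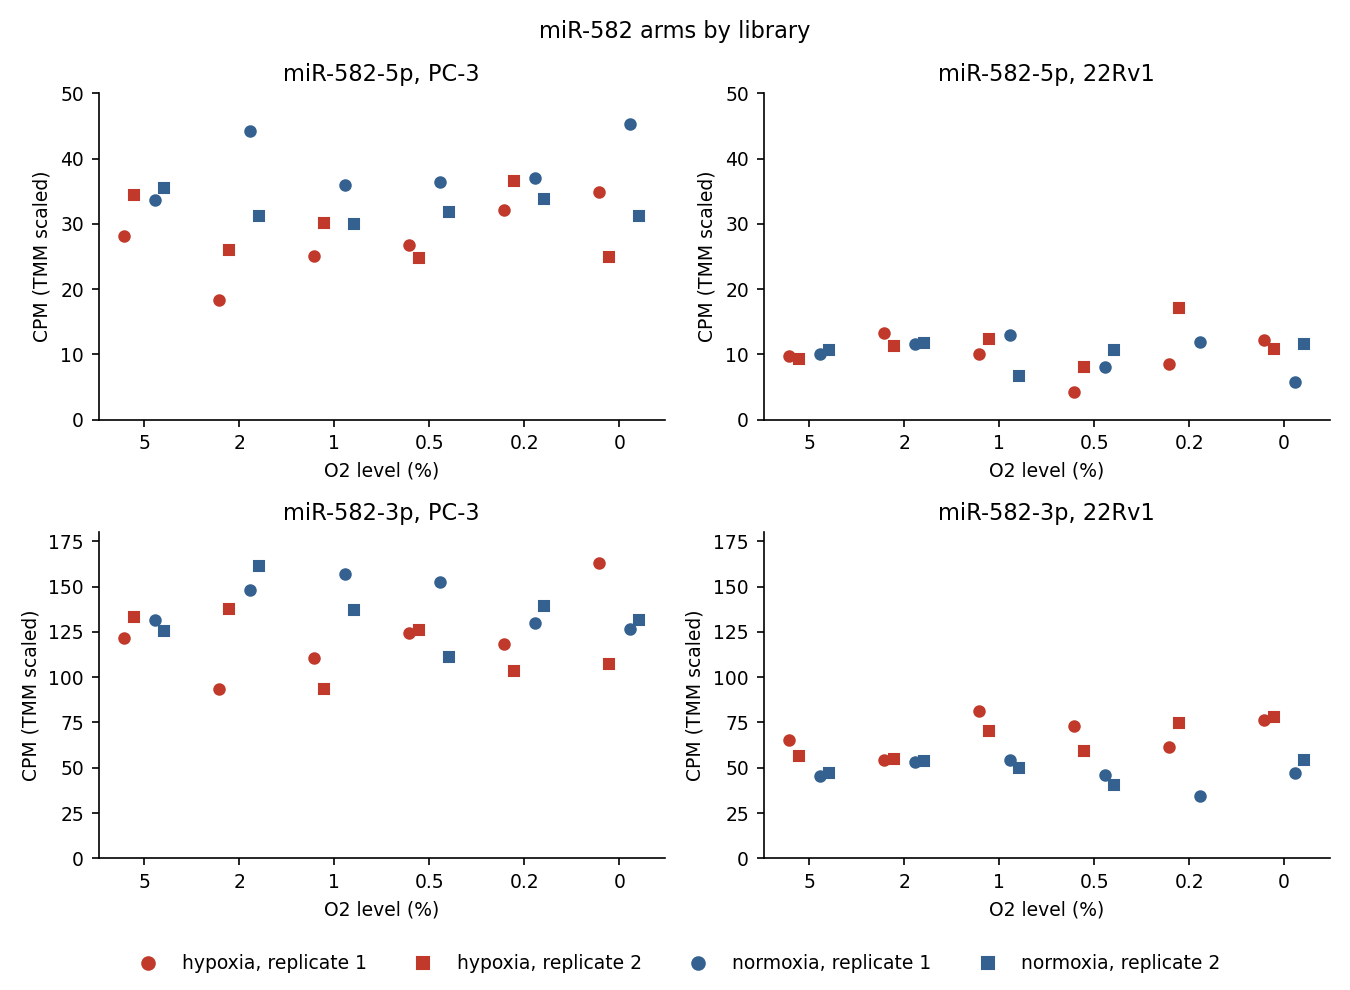
CPM (TMM scaled, linear axis from 0) of miR-582-5p (top) and miR-582-3p (bottom) in each library of PC-3 (left) and 22Rv1 (right), by O2 level in %; red points are hypoxia libraries, blue points the normoxia libraries of the same level, circles replicate 1 and squares replicate 2. In the 22Rv1 panel of miR-582-3p the red points lie above the blue ones at 5, 1, 0.5, 0.2 and 0% O2 and beside them at 2%, while miR-582-5p shows no such separation.

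In 22Rv1, miR-582-3p was higher in hypoxia and miR-582-5p was not. The 12 hypoxia libraries had a lowest, median and highest miR-582-3p value of 54.3, 67.6 and 81.5 CPM, against 34.7, 47.3 and 54.5 CPM in the 11 normoxia libraries. Averaged over the 6 levels, each against its own control, miR-582-3p was 1.43-fold higher in hypoxia (log2 0.52, standard error 0.087, 95% interval 0.34 to 0.70). The median of the mean effect over all 552 miRNAs tested in 22Rv1 was log2 0.01. Over those 552 miRNAs, 75 (13.6%) passed an adjusted p of 0.05 in the edgeR test of the mean effect, 42 of them higher in hypoxia (7.61%) and 33 lower (5.98%). With the replicate number as a block, 164 passed. The effect of miR-582-3p was 0.49 with the block, 0.46 without the 3 libraries that lay apart, and 0.42 without the 0.2% level, the last 2 chosen after seeing the data. Beside this, 1 of 2 endothelial markers rose in 22Rv1: miR-126-5p by log2 0.44 (adjusted p = 0.0211, edgeR), while miR-126-3p did not pass (0.25, adjusted p = 0.146, edgeR). The summed level of both was 212 to 481 CPM in hypoxia and 199 to 344 CPM in normoxia. Of 5 tested entries that overlap other RNA classes, miR-1260a (log2 0.28) and miR-4485-3p (1.54) rose and miR-4521 (-1.47) fell (adjusted p of 0.0429, 0.00175 and 0.00286, edgeR). The part of these markers in the result was not tested.

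The single values follow, replicate 1 before replicate 2 throughout. At 5% O2, miR-582-3p had 65.2 and 56.3 CPM in 22Rv1 hypoxia, against 45.6 and 47.3 CPM in normoxia. At 2% O2 it had 54.3 and 55.0 CPM in hypoxia, against 53.1 and 53.6 CPM in normoxia. On the TMM scale both libraries of hypoxia were above both of normoxia at 5%. At 2% the 4 values lay within 2 CPM of each other and their order depended on the scaling. The scaling mattered at other levels too. All hypoxia libraries were above their controls at 6 levels under TMM, 5 in the authors' deposited CPM and 3 with library size alone. At 1% O2, hypoxia libraries had 81.5 and 70.1 CPM, against 54.2 and 49.6 CPM in normoxia. At 0.5% O2 they had 73.1 and 59.5 CPM, against 45.7 and 40.5 CPM in normoxia. From 1% O2 downwards the gap between the conditions was wider than the gap within either on the TMM scale. The 0.2% level had 61.3 and 74.9 CPM in hypoxia, against 34.7 CPM in its single normoxia library. At 0% O2, the values were 76.5 and 78.3 CPM in hypoxia, against 46.99 and 54.5 CPM in normoxia. The control of the 0.2% level was the lowest of all 47 libraries for this arm, and the log2 difference at that level is the highest of the 6.

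Those log2 differences of miR-582-3p in 22Rv1 were 0.28 at 5%, 0.00 at 2%, 0.60 at 1%, 0.61 at 0.5%, 1.01 at 0.2% and 0.61 at 0% O2, with standard errors of 0.20 to 0.25. With library size alone in place of TMM, the value at 0.5% was 0.22 (standard error 0.29) and at 0% it was 0.46. In same-numbered pairs of libraries, hypoxia was higher in 11 of 11, counting both pairs at 2%, which differed by little. In the authors' deposited CPM, hypoxia was higher in 9 of 11 pairs, the exceptions being those at 2%. The replicates of a group were close for this arm, with a within-group SD of 0.13 on the log2 scale.

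miR-582-5p in 22Rv1 rested on few reads, 8 to 80 counts a library, and showed no common direction over the levels. Its lowest, median and highest values were 4.27, 10.4 and 17.2 CPM in 12 hypoxia libraries, against 5.75, 10.7 and 12.9 CPM in 11 normoxia libraries. The mean effect was log2 -0.01 (standard error 0.16), with a 95% interval of -0.35 to 0.33, which leaves room for a difference of that size in either direction at this depth. Hypoxia was lower in 8 of 11 pairs on the TMM scale, and not higher in 6 of 11 with library size alone. The mean effect ran from -0.11 to 0.04 under the alternative settings, and from -0.12 to 0.09 when single libraries were left out.

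Level by level the 5p arm of 22Rv1 scattered. At 5% O2, it had 9.78 and 9.25 CPM in hypoxia, against 10.1 and 10.7 CPM in normoxia. The 2% level had 13.3 and 11.3 CPM in hypoxia, against 11.6 and 11.7 CPM in normoxia. The 1% level had 9.99 and 12.4 CPM in hypoxia, against 12.9 and 6.66 CPM in normoxia. The conditions were separated by a small gap at 5%, and at 2 and 1% they overlapped. At 0.5% O2, hypoxia had 4.27 and 8.06 CPM, against 8.14 and 10.7 CPM in normoxia. At 0.2% O2, hypoxia had 8.51 and 17.2 CPM, against 11.95 CPM in normoxia. At 0% O2, hypoxia had 12.3 and 10.8 CPM, against 5.75 and 11.6 CPM in normoxia. Both hypoxia libraries were below both normoxia libraries at 5 and 0.5%, and the other 4 levels overlapped. The log2 differences were -0.23 at 5%, 0.03 at 2%, 0.21 at 1%, -0.63 at 0.5%, 0.18 at 0.2% and 0.39 at 0% O2, with standard errors of 0.36 to 0.46, which exceed the difference at all of these levels except 0.5% and 0%.

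In PC-3 both arms were on average lower in hypoxia. miR-582-5p had a lowest, median and highest value of 18.4, 27.5 and 36.6 CPM in 12 hypoxia libraries, against 29.9, 34.7 and 45.4 CPM in 12 normoxia libraries. miR-582-3p had 93.3, 120 and 163 CPM in hypoxia, against 111, 134 and 161 CPM in normoxia. The ranges overlapped for both arms, with 7 of 12 hypoxia libraries below the lowest normoxia library for miR-582-5p and 5 of 12 for miR-582-3p. The mean effect was log2 -0.32 for miR-582-5p (standard error 0.093, 95% interval -0.52 to -0.13), which is 1.25-fold lower. For miR-582-3p it was -0.20 (standard error 0.079, 95% interval -0.36 to -0.03), 1.15-fold lower. The median over the 463 miRNAs tested in PC-3 was 0.00, and 51 of them (11%) passed the edgeR test of the mean effect, 27 higher in hypoxia (5.83%) and 24 lower (5.18%). With the replicate block, 109 passed. Beside this, all 3 tested entries that overlap other RNA classes were lower in PC-3 hypoxia in edgeR: miR-4521 (log2 -0.58, adjusted p = 0.00207), miR-1260a (-0.21, adjusted p = 0.031) and miR-1260b (-0.23, adjusted p = 0.0246). The summed level of all 5 such entries in the table was 360 to 610 CPM in hypoxia and 504 to 660 CPM in normoxia, and their part in the result was not tested. In pairs, hypoxia was lower in 10 of 12 for miR-582-5p and in 9 of 12 for miR-582-3p.

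The 5p arm in PC-3 differed most at 2% O2. At 5% O2, miR-582-5p had 28.1 and 34.4 CPM in PC-3 hypoxia, against 33.7 and 35.6 CPM in normoxia. At 2% O2, it had 18.4 and 26.0 CPM in hypoxia, against 44.2 and 31.2 CPM in normoxia. At 1% O2, there were 25.1 and 30.2 CPM in hypoxia, against 36.0 and 29.9 CPM in normoxia. Only the 2% level of these 3 had both hypoxia libraries below both controls. At 0.5% O2, the values were 26.8 and 24.8 CPM in hypoxia, against 36.5 and 31.8 CPM in normoxia. At 0.2% O2, they were 32.2 and 36.6 CPM in hypoxia, against 37.0 and 33.8 CPM in normoxia. At 0% O2, they were 34.9 and 24.98 CPM in hypoxia, against 45.4 and 31.3 CPM in normoxia. The conditions separated at 2 and 0.5% and overlapped at the other 4 levels. The log2 differences were -0.14 at 5%, -0.79 at 2%, -0.25 at 1%, -0.42 at 0.5%, -0.01 at 0.2% and -0.33 at 0% O2, with standard errors of 0.22 to 0.24.

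The 3p arm in PC-3 was lower in hypoxia at 2, 1 and 0.2% O2 and overlapped its controls at the other levels. At 5% O2, miR-582-3p had 122 and 133 CPM in PC-3 hypoxia, against 131 and 125 CPM in normoxia. At 2% O2, it had 93.3 and 138 CPM in hypoxia, against 148 and 161 CPM in normoxia. At 1% O2, it had 111 and 93.5 CPM in hypoxia, against 157 and 137 CPM in normoxia. Both hypoxia libraries were below both controls at 2 and 1%, and at 5% they overlapped. At 0.5% O2, there were 124 and 126 CPM in hypoxia, against 152 and 111 CPM in normoxia. At 0.2% O2, there were 118 and 103 CPM in hypoxia, against 130 and 140 CPM in normoxia. At 0% O2, there were 163 and 107 CPM in hypoxia, against 126 and 131 CPM in normoxia. The 0.2% level was the third at which the conditions separated, and at 0% the 2 hypoxia libraries were the highest and the lowest of the 4. The log2 differences were 0.00 at 5%, -0.44 at 2%, -0.51 at 1%, -0.08 at 0.5%, -0.23 at 0.2% and 0.10 at 0% O2, with standard errors of 0.19. Without replicate 1 at 5% O2 in hypoxia and normoxia, the libraries with high stromal markers, the mean effects in PC-3 were -0.30 for miR-582-5p and -0.18 for miR-582-3p.

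**Figure D2:**
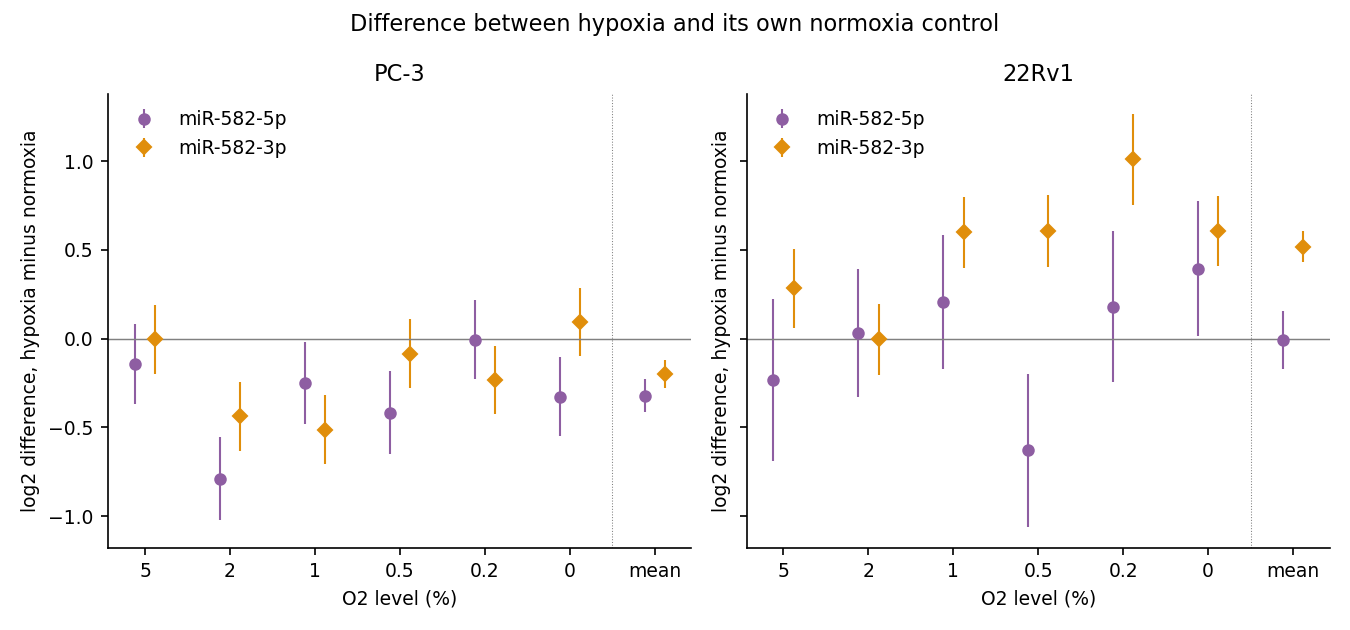
Log2 difference of hypoxia minus the normoxia control of the same level (y axis) by O2 level in % (x axis), with the mean over levels at the right, for miR-582-5p (circles) and miR-582-3p (diamonds) in PC-3 (left) and 22Rv1 (right); bars are standard errors of the edgeR fit. The means are -0.32 and -0.20 in PC-3, and -0.01 and 0.52 in 22Rv1.

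The mean response of the 3p arm had opposite signs in the lines. The mean effect of miR-582-3p in PC-3 minus that in 22Rv1 was log2 -0.73 (standard error 0.11, 95% interval -0.96 to -0.50). For miR-582-5p the same difference was -0.33 (standard error 0.19, 95% interval -0.72 to 0.05), an interval that includes 0. Over all 613 miRNAs, 18 (2.94%) passed the edgeR test of this line difference, 15 of them lower in PC-3 (2.45%). Because this difference is among the values the arms were put forward with, nothing is read from it beyond its size.

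No trend with falling O2 passed the test for either arm. In 22Rv1 the slope of miR-582-3p was log2 0.13 per step toward lower O2 (standard error 0.051, 95% interval 0.03 to 0.24, adjusted p = 0.445, edgeR). In the same line miR-582-5p had a slope of 0.08 (adjusted p = 0.884, edgeR). PC-3 slopes were 0.04 for both arms (adjusted p = 0.995 each, edgeR). The line differences of the slope, PC-3 minus 22Rv1, were -0.08 for miR-582-3p and -0.04 for miR-582-5p (adjusted p = 1 each, edgeR). Trends were rare in the table: 1 of 463 miRNAs passed in PC-3 (0.216%) and 1 of 552 in 22Rv1 (0.181%), with 17 and 38 at an unadjusted p under 0.05. For the line difference of the slope, 0 of 613 passed in edgeR and 22 had an unadjusted p under 0.05. In 22Rv1 the block raised the number of trends called to 17, and the adjusted p of miR-582-3p was then 0.134. The normoxia control sets of the 6 levels gave no call for either arm (adjusted p of at least 0.996, edgeR), and 0 miRNAs were called in either line, with 13 at an unadjusted p under 0.05 in PC-3 and 3 in 22Rv1.

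The ratio of the arms needs no scaling of libraries, since both counts come from one library. It is given as log2 of 5p counts over 3p counts, with 0.5 added to each, so that a lower value means relatively less 5p arm. In normoxia it averaged -1.95 ± 0.24 in PC-3 (SD, n = 12) and -2.24 ± 0.41 in 22Rv1 (n = 11). The difference of 0.29 did not pass a two-sided permutation test (100000 resamples, p = 0.0519, adjusted over 3 ratio tests 0.156), and the ranges overlapped. Counting error alone gives a standard error of about 0.17 in a PC-3 normoxia library and 0.31 in a 22Rv1 one, and it limits the precision of the ratio in 22Rv1. Over 23 omissions of a single normoxia library, the difference ran from 0.21 to 0.36 (permutation p of 0.00784 to 0.106, unadjusted). The highest value came without the single 22Rv1 control of the 0.2% level. That library had the least negative normoxia ratio in its line (-1.52), so leaving it out widens the difference by construction. This omission was singled out after seeing the data.

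In hypoxia the ratio averaged -2.06 ± 0.28 in PC-3, against -1.95 ± 0.24 in PC-3 normoxia (SD, n = 12 each). In 22Rv1 it averaged -2.69 ± 0.52 in hypoxia (n = 12), against -2.24 ± 0.41 in normoxia (n = 11). Averaged over levels, hypoxia minus normoxia was -0.11 in PC-3 and -0.51 in 22Rv1, and the lines differed by 0.40 (PC-3 minus 22Rv1). By level that line difference was 0.37 at 5%, -0.34 at 2%, 0.56 at 1%, 0.89 at 0.5%, 1.19 at 0.2% and -0.26 at 0% O2. The highest value, at 0.2%, rests on the single 22Rv1 control. The small PC-3 mean of -0.11 was -0.06 without replicate 1 of normoxia at 2% or at 0% O2, and -0.07 without replicate 1 of hypoxia at 1% O2. The ratio was lower in hypoxia in 10 of 12 pairs in PC-3 and in 8 of 11 pairs in 22Rv1. Pair differences had a median of -0.10 in PC-3 (-0.74 to 0.56) and -0.57 in 22Rv1 (-1.55 to 0.38). Some of the lower PC-3 pairs were close to 0, such as -0.01 at 1% and -0.03 at 0% O2. The 2 higher PC-3 pairs, at 1 and 0.2% O2, differed by 0.56 and 0.55. In terms of shares, the 5p arm made up 14.3% of pooled miR-582 counts in 22Rv1 hypoxia (95% Wilson interval 13.0 to 15.7%, 367 of 2565 counts), against 17.6% in normoxia (15.96 to 19.4%, 328 of 1861 counts). In PC-3 the 5p share was 19.2% in hypoxia (18.0 to 20.4%, 758 of 3958 counts), against 20.8% in normoxia (19.7 to 21.9%, 1132 of 5442 counts). These intervals cover counting error only, and reads without molecular identifiers are not independent molecules. Libraries of one kind varied more than counting allows, at 1.82 to 2.49 chi-square units per degree of freedom.

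By level, the ratio response in 22Rv1 was -0.51 at 5%, 0.03 at 2%, -0.29 at 1%, -1.24 at 0.5%, -0.95 at 0.2% and -0.12 at 0% O2. It was below 0 at 5 of 6 levels. At 0.5% both pairs were lower in hypoxia, with differences of -1.55 in replicate 1 and -0.93 in replicate 2. Replicate 1 of hypoxia at that level had 8 counts of the 5p arm and 137 of the 3p arm, which is the most negative ratio of all 47 libraries (-4.02). This is also one of the 3 libraries that lay apart, with summed stromal markers of 533 CPM. At 0.2% there is only the 1 control, with 40 and 116 counts. Without the libraries apart, the mean response of the ratio in 22Rv1 was -0.40, and without the 0.2% level it was -0.43. In PC-3 the level values were -0.14 at 5%, -0.31 at 2%, 0.28 at 1%, -0.34 at 0.5%, 0.24 at 0.2% and -0.39 at 0% O2, below 0 at 4 of 6 levels. Same-group libraries had a within-group SD of 0.24 for the ratio in PC-3 and 0.42 in 22Rv1. Trends of the ratio over O2 levels did not pass (permutation p = 0.935 in PC-3 and 0.643 in 22Rv1, adjusted p = 0.935 for both).

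**Figure D3:**
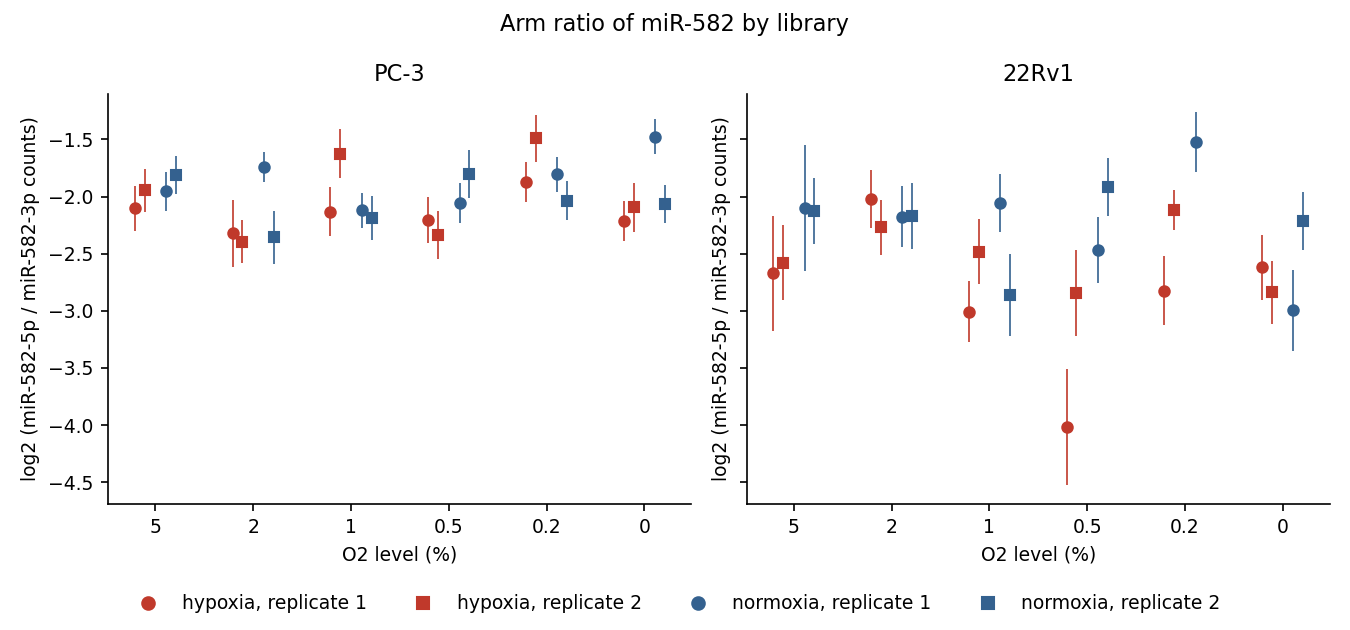
Log2 ratio of miR-582-5p to miR-582-3p counts in each library (y axis) by O2 level in % (x axis) in PC-3 (left) and 22Rv1 (right); hypoxia is red and normoxia blue, circles are replicate 1, squares replicate 2, and bars are counting standard errors. The lowest point, -4.02, is 22Rv1 hypoxia replicate 1 at 0.5% O2.

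The agreement between the arms was also described pair by pair. The 2 arms differed from their controls in the same direction in 7 of 12 pairs in PC-3 and in 3 of 11 pairs in 22Rv1. Across libraries, Pearson's r between the arms (log2 of CPM + 1) was 0.49 over 24 PC-3 libraries and 0.05 over 23 22Rv1 libraries. These are descriptions over libraries that share groups and depth, the test of the difference between them was not run, and the 5p arm had only 8 to 80 counts a library in 22Rv1.

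Set among other hairpins with both arms tested, the imbalance of miR-582 in 22Rv1 lay toward one end. Its 5p effect minus its 3p effect was log2 -0.53, the sixth most negative of 139 hairpins, whose median was -0.03. By size regardless of sign it ranked 15 of 139. Among the 88 hairpins whose scarcer arm was at least as abundant in normoxia, it ranked 2 from the negative end and 8 by size. These ranks are built from the mean effects with which the arms were put forward, so they are descriptions and not evidence. The 5p effect behind them has a standard error of 0.16. Arms of opposite sign were common, at 51 of 139 hairpins in 22Rv1 (36.7%) and 34 of 120 in PC-3 (28.3%). In PC-3 the same difference for miR-582 was -0.13, at rank 19 from the negative end and 45 by size of 120 hairpins, whose median was 0.02.

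**Figure D4:**
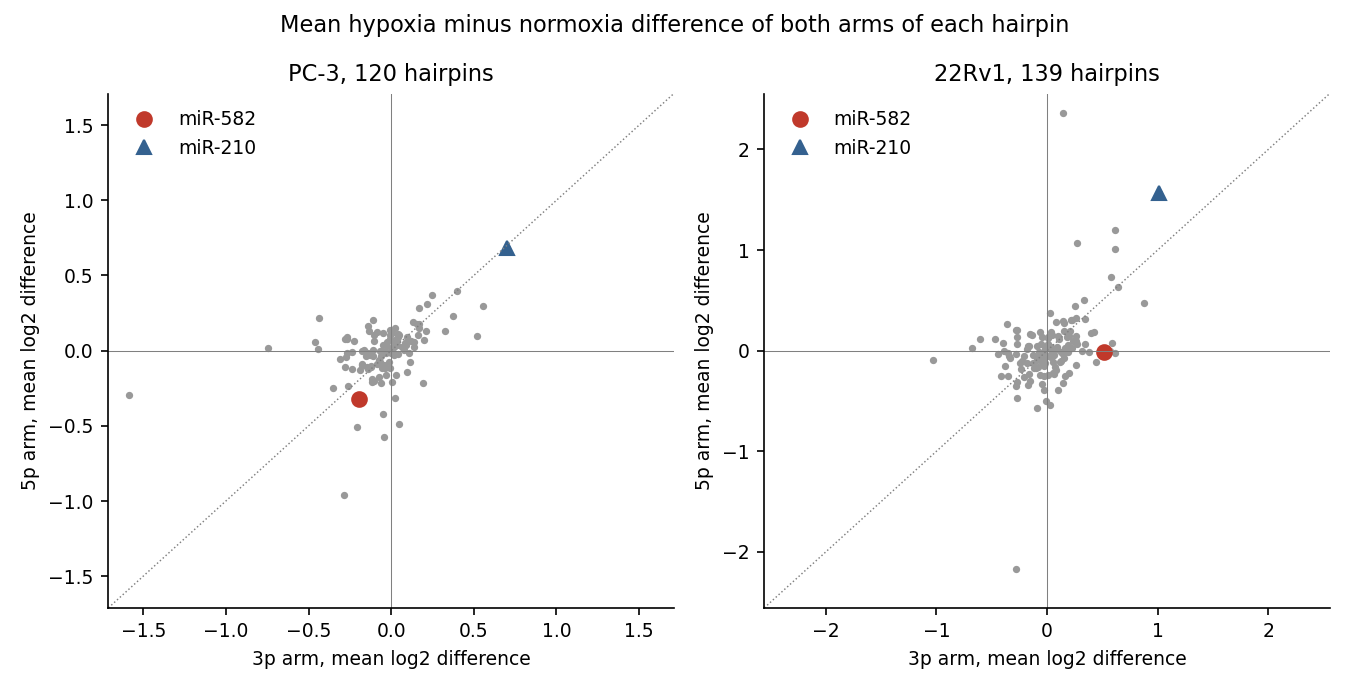
Mean log2 difference of hypoxia minus normoxia of the 3p arm (x axis) and of the 5p arm (y axis), one point per hairpin with both arms tested, in PC-3 (left, 120 hairpins) and 22Rv1 (right, 139 hairpins); the dotted line marks equal effects. miR-582 (red circle) is at -0.20 and -0.32 in PC-3 and at 0.52 and -0.01 in 22Rv1, and miR-210 (blue triangle) has both arms above 0 in both lines.

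The miRNAs whose levels ran most like each arm over libraries differed by line, and they are listed for their pattern alone. In 22Rv1 the closest to miR-582-3p were miR-27a-5p (Pearson's r 0.80), miR-210-5p (0.76) and miR-190b (0.75), over 23 libraries and among 311 miRNAs with at least 20 CPM on average. For miR-582-5p in 22Rv1 they were miR-561-5p (0.60), miR-424-5p (0.58) and miR-200c-5p (0.58), and its own other arm ranked 150 of 312. In PC-3 the closest to miR-582-5p were miR-1296-5p (0.68), miR-1260b (0.66) and miR-1260a (0.65) over 24 libraries and 299 miRNAs, with miR-582-3p at rank 20. miR-1260a and miR-1260b were listed here among entries that overlap other RNA classes. The closest to miR-582-3p in PC-3 were miR-1285-3p (0.67), miR-101-3p (0.59) and miR-106a-5p (0.57), with miR-582-5p at rank 6. All points share library scaling and the hypoxia contrast.

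Other miRNAs linked to bone metastasis of prostate cancer in the literature were looked at as a list of 12, of which 11 are in the table. In PC-3, 8 besides the 2 arms were tested for the mean effect, against the background of 11% given above. Of these 8, miR-210-3p and miR-133a-3p passed, as higher. The median effect was log2 0.02 with both arms and 0.25 over the other 8, beside 0.00 over all miRNAs. miR-210-3p, which marks the hypoxia response, rose by log2 0.70 (adjusted p = 1.05e-07, edgeR), and miR-133a-3p, a muscle miRNA, rose by 1.23 (adjusted p = 0.000892, edgeR). miR-133a-3p was scarce, at 4.83 ± 1.43 CPM in hypoxia and 2.11 ± 0.88 CPM in normoxia (SD, n = 12 each). It is also a stromal marker, and 2 of the 6 stromal markers rose in PC-3. Their part in the result was not tested. Among the most abundant members, miR-19a-3p of the miR-17-92 cluster averaged 381 ± 39.4 CPM in hypoxia and 395 ± 33.8 CPM in normoxia and did not pass. miR-143-3p, a smooth muscle miRNA, did not pass either (log2 -0.04, standard error 0.76, adjusted p = 0.987, edgeR). Its mean of 129 ± 387 CPM in hypoxia and 136 ± 413 CPM in normoxia rests on replicate 1 at 5% O2, and its lowest library had 6.01 CPM.

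In 22Rv1, 6 of the list besides the 2 arms were tested, against the background of 13.6%. Of these 6, miR-210-3p and miR-19a-3p passed in edgeR, as higher. The median effect was log2 0.11 with both arms and also over the other 6, beside 0.01 over all miRNAs. miR-210-3p rose by 1.01 (adjusted p = 2.8e-09, edgeR). miR-19a-3p rose by 0.38 (adjusted p = 0.0102, edgeR), with 348 ± 62.5 CPM in hypoxia (n = 12) and 264 ± 37.1 CPM in normoxia (SD, n = 11). miR-141-3p, a miR-200 family member of epithelial cells, was the most abundant of the list at 13104 ± 6490 CPM in hypoxia and 11440 ± 6143 CPM in normoxia, and did not pass (adjusted p = 0.744, edgeR). miR-143-3p averaged 138 ± 113 CPM in hypoxia and 132 ± 34.6 CPM in normoxia (adjusted p = 0.981, edgeR). Of the stromal markers in 22Rv1, 0 of the 3 tested were called in edgeR, their sum was 54.3 to 533 CPM in hypoxia and 115 to 258 CPM in normoxia, and miR-145-5p was at 0 in 3 libraries; their part in the result was not tested.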

How the data were processed

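Small RNA libraries (total RNA, TruSeq Small RNA kit, per the labels) were counted by the authors, who deposited whole-number read counts per mature miRNA for 47 libraries. The submitters' processing notes name FastQC and hg19; which aligner and counter were used is not given in the sources used here. Coordinates printed here are those of RefSeq on GRCh38.p14 and were not taken from the deposited files. The authors' second deposited table holds TMM-scaled CPM, which equal the counts multiplied by a constant for each library (checked, relative difference at most 2.5e-09). Its factors served as an alternative. Library totals were 960421 to 4327382 counts.

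Counts were analysed here in R 4.3.3 with edgeR 4.0.16 (TMM, robust quasi-likelihood test, 1 mean per group), keeping miRNAs that reached 5 CPM in 2 or more libraries (463 for PC-3, 552 for 22Rv1 and 613 for the joint fit). Effects and trends were fitted per line, line differences over both lines. p-values were adjusted by the Benjamini-Hochberg method over all miRNAs tested, with calls at 0.05. The lone 22Rv1 control library was taken to vary as the rest do. CPM in the text are TMM scaled over both lines. Arm ratios used log2 with 0.5 added to each count and two-sided permutation tests (SciPy 1.17.1). The members and lists were chosen with earlier results of these data known. Named miRNAs were the arms, the 3 of highest Pearson's r per arm and line with at least 20 CPM, and the called and 4 most abundant bone-metastasis-linked miRNAs. Alternatives were other scalings, filters, DESeq2 1.42.0, the replicate block and leaving out libraries.

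Same-numbered hypoxia and normoxia libraries of a level deviated together from their group means (correlation 0.30 to 0.66 in PC-3 and 0.11 to 0.40 in 22Rv1, all above 0.1). The numbers were therefore taken as pairs in the pair counts, the trend test of the ratio and the replicate block. The main fits leave the pairing out, and so do the standard errors, intervals, adjusted p and background shares taken from them. On simulated data, the test of the mean effect recovered 86.9% of log2 changes of 0.5 in PC-3 and 84.9% in 22Rv1. It falsely called 3 of 361 unchanged miRNAs in PC-3 and 11 of 366 in 22Rv1. The simulation used the same mean levels for both lines, 1 spread for all miRNAs and no pairing. These rates hold over all miRNAs and do not give the power for the arms, whose PC-3 effects were smaller than 0.5.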

Additional observations from a re-analysis of the deposited data

Results flagged for a closer look

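One result was picked out because an effect under the same contrast differed between the lines. The mean hypoxia effect of miR-582-3p was log2 -0.20 in PC-3 and 0.52 in 22Rv1, a difference of -0.73 (standard error 0.11, 95% interval -0.96 to -0.50, PC-3 minus 22Rv1). The interval lies below 0, but the arms were put forward with this difference known, so it is a description and not an independent test.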

How the results depend on the processing

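Across 972 recomputed values, 950 counted as the same, 15 moved, 7 newly passed and 0 reversed. For a test, the same meant the same side of the threshold, whatever the sign where neither value passed. For an untested value it meant a move smaller than the replicate spread, and for a count a move within 1.5 times. Values near 0 could therefore change sign without being counted as reversed. The replicate spread was log2 0.21 for miR-582-3p and 0.24 for the ratio in PC-3, and 0.43 for miR-582-5p in 22Rv1. The mean effects of these, at -0.20, -0.11 and -0.01, were smaller in size than that spread. For them the label could not tell an effect that held from one that vanished, so the tally is no measure of their stability. The ratio trend in PC-3 ran from -0.04 to 0.05 when single libraries were left out. Every call on the normoxia level of both arms held, and no trend of either arm passed, under all alternatives run. The number of miRNAs called for the mean effect was 75 in 22Rv1, 46 with library size alone and 164 with the replicate block; in PC-3 it was 51, and 109 with the block. Trends called in 22Rv1 numbered 1, against 0 with library size alone, 3 with the authors' factors, 2 with no filter, 17 with the block, 4 with DESeq2 and 2 without the libraries apart on the first component (an alternative chosen after seeing the data); in PC-3 they numbered 1, against 2 with the authors' factors and 3 with the block. The block, which pairs same-numbered libraries, moved the 22Rv1 effects at 0.2% O2 and changed no call on the arms. There miR-582-3p went from 1.01 to 0.85, and miR-582-5p went from 0.18 to -0.46, a change of sign. The normoxia difference of the arm ratio was 0.30 with no pseudocount (unadjusted permutation p = 0.042), and 0.21 to 0.36 when each library was left out in turn, passing at an unadjusted 0.05 in 6 of 23 omissions. The cause of these changes was not tested. Where the only 22Rv1 normoxia library of the 0.2% level is left out, fits that need its group gave no value. Depth limits miR-582-5p in 22Rv1 most, at 8 to 80 counts a library.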
